A study of Mus musculus with 4 samples.

Results

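The haemoglobin-dominated barcodes of the cerebellar subdural meninges are droplets in which genes with symbols starting Hba- or Hbb- held at least 50% of the UMIs (unique molecular identifiers, 1 per captured transcript). They numbered 8166 of the 62925 deposited barcodes, or 13.0%, with no filter on genes or mitochondrial reads. The haemoglobin share chose them, so their high haemoglobin level is a description and not a result. Cells were captured by 10x Chromium 3' single-cell RNA sequencing from leptomeninges peeled off the cerebellum of C57BL/6-background mice, all of which carried the transgene Neurod2-SmoA1 on 1 allele (Neurod2-SmoA1+/-), an activated Smoothened driven in granule neurons. The 2 NdpWT libraries came from mice with intact Ndp, the gene of the secreted ligand norrin, and the 2 NdpKO libraries from knockouts of this gene. A library pooled 5 cerebella, and pups were at postnatal days 6 to 8 by the sample field and days 7 to 9 by the protocol. Dispase at 2.5 mg/ml and 22% Percoll are listed for every library. Their part in the number of red cells captured was not tested. The comparison between genotypes asks whether these barcodes differ in number or content when norrin is missing.

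Red cells arise from erythroblasts, which fill with haemoglobin, expel the nucleus and become reticulocytes. A reticulocyte still holds RNA and loses its mitochondria, ribosomes and remaining transcripts as it matures into a red cell. Haemoglobin pairs alpha chains, from Hba-a1 and Hba-a2 on chromosome 11, with beta chains, in C57BL/6 mice from Hbb-bs and Hbb-bt on chromosome 7. Haem is made in a pathway that starts with Alas2 in red cells and ends with Fech, which inserts the iron.

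The split between Hbb-bs and Hbb-bt varied widely from barcode to barcode, so short stretches upstream of these genes are shown, from RefSeq (GRCm38.p6), with matches to CACCC and CCAAT in capitals. The pair of alpha genes is shown because its stretches are alike, and Alas2 because its stretch holds AGATAA, in capitals as its reverse complement.
Hbb-bs, chr7:103827994-103828023, minus strand: agccaCACCCtggtaagggCCAATctgctc
Hbb-bt, chr7:103813988-103814017, minus strand: ggtaaCACCCtggcATTGGCCAATctgctc
Hba-a1, chr11:32283602-32283631, plus strand: agggcgtgtcCACCCtgcctggaggacacg
Hba-a2, chr11:32296419-32296448, plus strand: agggcgtgtcCACCCtgcctggaggacacg
Alas2, chrX:150547321-150547350, plus strand: actttgctttTTATCTttagcagaggcctg
The 30 bases were identical between the alpha genes and the same at 24 of 30 positions between the beta genes, where Hbb-bt also held CCAAT on the other strand, directly beside the first. Searched on both strands, CACCC occurs in the 150 bases upstream of 37.4% of 32851 RefSeq gene starts, CCAAT of 24.5% and AGATAA of 5.65%, so a match is a description of these letters. The last 100 bases of the longest coding transcripts, at the 3' end from which the assay captures RNA, aligned with 84 identical bases over 116 columns for the alpha genes and 69 over 103 for the beta genes. Where the tags lie within the transcripts was not examined. In GENCODE M21 (GRCm38), Hbb-bs spans chr7:103826534-103828096, Hbb-bt chr7:103812524-103813996, Hba-a1 chr11:32283511-32284465, Hba-a2 chr11:32296489-32297298 and Alas2 chrX:150547375-150570638. Its starts differ from those of RefSeq, so the stretches of Hbb-bs and Hba-a1 lie inside these spans and that of Hbb-bt at their edge. Tags could still be shared between the copies of a pair, which makes the split within a pair uncertain in level.

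Haemoglobin share separated the barcodes into a low and a high mode in each library. Members made up 9.63% (1385 of 14384 barcodes) of NdpWT replicate 1, 17.8% (3404 of 19134) of NdpWT replicate 2, 10.2% (1320 of 12904) of NdpKO replicate 1 and 12.5% (2057 of 16503) of NdpKO replicate 2. Exact 95% binomial intervals, which cover counting error only, were 9.15% to 10.1%, 17.3% to 18.3%, 9.71% to 10.8% and 11.96% to 13.0%. NdpWT replicate 2 stood above the other 3 libraries. The threshold cut a thin part of the distribution: 249 barcodes lay just below it, between 45% and 50% haemoglobin, and 220 just above, between 50% and 55%. Pooled over libraries, those just inside had a median of 1373.5 UMIs and 414 genes and those just outside 1453 UMIs and 475 genes. NdpKO replicate 1 differed. Its 6 barcodes just inside had a median of 8606.5 UMIs and 1343 genes, and its 36 just outside 15392.5 UMIs and 2480 genes.

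**Figure D1:**
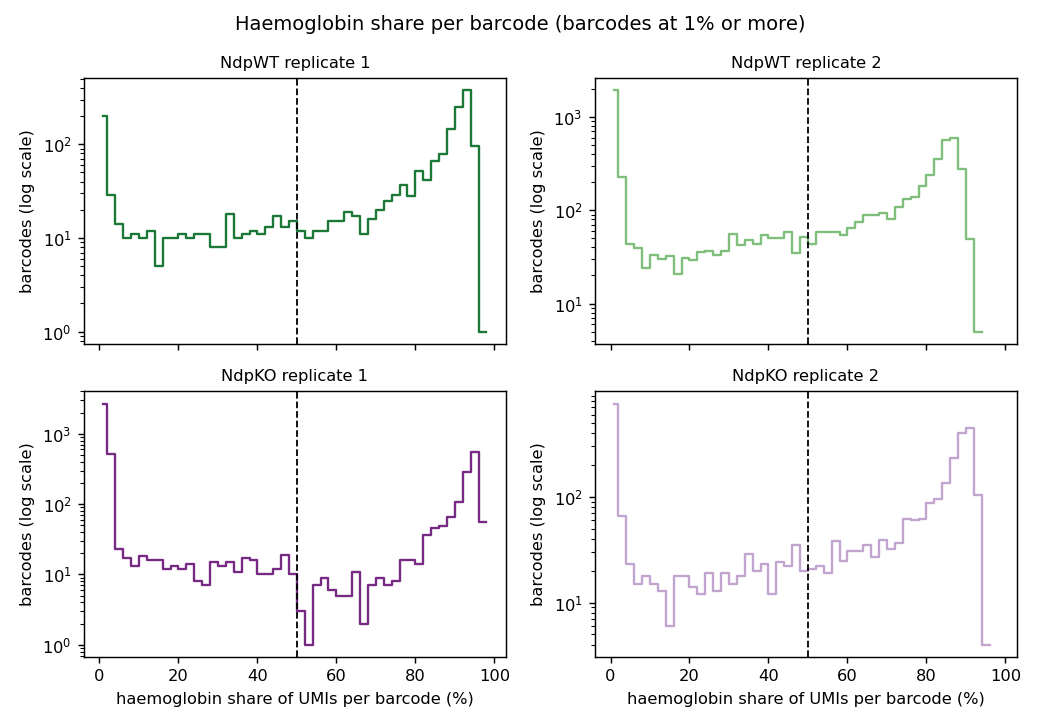
Number of barcodes (log axis) by haemoglobin share of UMIs in steps of 2 percentage points, for the 4 libraries, with barcodes under 1% left out and the 50% rule as a dashed line. In each library the counts are low between the modes, and the high mode lies at a lower share in NdpWT replicate 2, whose members had a median share of 82.9%, than in NdpKO replicate 1, at 93.7%.

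Members held many UMIs from few genes. Here and below, 4 values in a row follow the order NdpWT 1, NdpWT 2, NdpKO 1, NdpKO 2, where the digit is the replicate. Their median depth was 6153, 4770, 12704.5 and 5918 UMIs, against 4551, 4722, 1325.5 and 4943 in the other barcodes. They held a median of 308, 436.5, 318.5 and 373 genes, against 1882, 2018.5, 670 and 2040.5. With each barcode thinned to 500 UMIs, members had a median of 44.9, 74.3, 29.1 and 54.7 expected genes. The other barcodes had 369, 369, 330 and 370. Outside haemoglobin, the median member held 510, 744, 701.5 and 663 UMIs. A filter at 500 genes would leave 1741 of the 8166 members, or 21.3%. Mitochondrially encoded genes took a median of 0.470%, 0.495%, 0.305% and 0.533% of a member's UMIs, against 3.26%, 2.77%, 4.99% and 2.99% in other barcodes. As a share of non-haemoglobin UMIs they took 6.68%, 3.90%, 5.93% and 5.34% of the members' total, above the 4.15%, 3.64%, 5.56% and 4.11% of other barcodes. Members held 7.71%, 13.1%, 13.3% and 9.17% of all UMIs of a library and 90.02%, 87.3%, 91.0% and 89.7% of its globin UMIs. Of the other barcodes, which held a median of 6 to 11 globin UMIs, nearly all had some. NdpKO replicate 1 stood apart, with the deepest members and the shallowest other barcodes. Of 62540 barcode sequences 385 were in more than 1 library, and 3 of 8163 were members in more than 1.

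Adult globins made up nearly all of the haemoglobin, in similar proportions in the 4 libraries. Hbb-bs took 48.8%, 45.4%, 47.6% and 47.7% of the members' UMIs, Hba-a1 19.4%, 17.1%, 21.1% and 18.5%, Hba-a2 14.2%, 12.1%, 16.0% and 13.2%, and Hbb-bt 6.27%, 6.66%, 7.18% and 6.71%. The order of the 4 genes was thus the same in every library. Alpha genes held 37.9%, 35.9%, 40.4% and 36.8% of globin UMIs. Hba-a2 held 42.3%, 41.4%, 43.2% and 41.7% of adult alpha UMIs. Embryonic globins were close to absent: Hbb-y had 28 UMIs in all members together, Hbb-bh1 17, Hbb-bh2 8 and Hba-x 0, beside 24840922 of Hbb-bs. Hbb-y had more UMIs, 170, in the other barcodes. The theta globins Hbq1a and Hbq1b, which the rule did not use, had 1320 and 857 UMIs in members and 146 and 92 elsewhere.

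Levels of other genes are given as CPM, here the UMIs of a gene per 1000000 non-haemoglobin UMIs, summed over the members of a library, since haemoglobin would otherwise set the scale. They are set beside the other barcodes of the same library as a description with no test, because the members were chosen by their own transcripts. Of 5100 genes with at least 20 member UMIs in every library, 77 were at least 10-fold and 27 at least 100-fold higher in members, 4664 were lower, and the median ratio was 0.671. Of all 11153 genes with at least 3 member UMIs in every library, 4.22% were higher than in the other barcodes in each library, 0.834% at least 10-fold, and 79% were lower in each. Counts of list genes below are read beside these shares.

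Alas2, the red cell enzyme of the first step of haem synthesis, was the marker of the label that the rule did not use. It stood at 13355, 8614, 11549 and 11435 CPM, against 15.9, 37.3, 20.1 and 20.3 in the other barcodes. The ratio was 501-fold as a geometric mean over libraries, and the ranges lay far apart. With each barcode thinned to 200 non-haemoglobin UMIs, Alas2 was detected in 80.1%, 74.5%, 81.6% and 79.0% of members and in 0.300%, 0.633%, 0.339% and 0.382% of barcodes marked by granule neuron genes, which should lack it. Unthinned, 150, 221, 103 and 169 members lacked it. Slc25a37, the mitochondrial iron importer, was 126-fold higher in members, Fech 62.8-fold and Slc25a39, a mitochondrial carrier, 21.3-fold. Of 16 haem synthesis genes, 10 were higher than in the other barcodes in every library and 2 lower.

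Genes of the red cell membrane were far above their level in other barcodes. Slc4a1, the band 3 anion exchanger, stood at 592, 442, 879 and 491 CPM, 298-fold above the other barcodes. Epb41, protein 4.1 of the membrane skeleton, was 29.4-fold and Cd24a 13.1-fold higher. Of 19 membrane genes with at least 3 UMIs in each library, 15 were higher than in the other barcodes in every library, 11 of them at least 10-fold.

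Genes of late maturation and organelle clearance took 4.72%, 3.28%, 5.25% and 4.50% of the members' non-haemoglobin UMIs and 0.103%, 0.103%, 0.0884% and 0.101% of those of other barcodes. Bpgm, which makes the bisphosphoglycerate that lowers oxygen affinity, stood at 9646, 7743, 12010 and 10661 CPM and was 202-fold higher. Mkrn1, an E3 ubiquitin ligase, was 102-fold higher, and Bnip3l, the receptor for mitochondrial clearance, 24.6-fold. In all, 18 of 20 genes of this list were higher in every library. The exonuclease gene Isg20 was 368-fold higher, Tspo2 391-fold and Rec114 376-fold.

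Antioxidant genes differed within their list. Gpx1, the main glutathione peroxidase, was 44.8-fold higher, at 14561, 8452, 14554 and 11366 CPM. Blvrb, biliverdin reductase B, was 8.29-fold and Prdx2, the red cell peroxiredoxin, 6.86-fold higher. Only 4 of 11 antioxidant genes were higher in every library and 5 were lower in each. Of the iron genes, the ferritin light and heavy chains Ftl1 and Fth1 were 5.55-fold and 2.18-fold higher, and 8 of 11 were lower in every library. Tfrc, the transferrin receptor of haemoglobin-making erythroblasts, stood at 60.5, 57.9, 78.6 and 35.5 CPM, beside 46.3, 60.4, 33.7 and 29.3 in other barcodes. It was thus higher in members except in NdpWT replicate 2, where it was slightly lower.

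Early erythroid genes were mixed. Gata1, the master erythroid transcription factor, had 2, 8, 7 and 4 UMIs in all members. Klf1, its partner at globin genes, stood at 1.34 to 9.74 CPM. The proliferation marker Mki67 was lower than in other barcodes, 0.523-fold, as was Top2a, 0.612-fold. Members of the early and cycling list that stood out were Car2, carbonic anhydrase 2, at 109-fold, and Ube2c, a ubiquitin-conjugating enzyme of mitosis, at 5.04-fold. Of the 19 early and cycling genes with at least 3 UMIs in each library, 14 were lower in members in every library and 3 higher, beside the 79% of all genes that were lower and the 4.22% that were higher. The third higher gene, Car1, had only 14, 14, 10 and 6 UMIs in members. Summed, the list took 0.522%, 0.401%, 0.512% and 0.421% of the members' non-haemoglobin UMIs and 0.322%, 0.315%, 0.283% and 0.324% of those of other barcodes. Car2, at 2138, 1100, 2264 and 1420 CPM, and Ube2c, at 1045, 775, 1037 and 951, made up a large part of the members' total. The higher total thus does not describe the list as a whole, of which 14 genes were lower.

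The most abundant transcript outside haemoglobin was Gm42418, which overlaps a ribosomal RNA repeat and the second such annotation, AY036118. Gm42418 is annotated on the plus strand and AY036118 on the minus strand, so strand alone tells their reads apart where they overlap. Gm42418 stood at 69361, 94352, 125203 and 100932 CPM, 4.83-fold above other barcodes. Malat1, a nuclear long non-coding RNA, stood at 13469, 12999, 8374 and 14310, 0.489-fold of the other barcodes. Ubb, a polyubiquitin gene, was 5.49-fold higher.

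Part of the non-haemoglobin RNA carried markers of the surrounding tissue. Summed as a share of non-haemoglobin UMIs, fibroblast markers took 0.249%, 0.388%, 0.365% and 0.434% in members against 0.608%, 0.707%, 0.908% and 0.690% in other barcodes. Granule neuron markers took 0.189%, 0.107%, 0.107% and 0.120% against 0.262%, 0.174%, 0.160% and 0.226%. All 12 fibroblast, all 12 granule neuron and all 12 macrophage markers had UMIs in members. Platelet markers took 0.0116% to 0.0272%, nearly all Pf4, with 2 of 12 at 0, and neutrophil markers 0.00139% to 0.00562%. Pf4 stood at 265, 193, 215 and 106 CPM in members and 756, 396, 617 and 308 in other barcodes. Ppbp, also in the platelet list, had 0, 1, 0 and 1 UMIs in members. The platelet share thus describes Pf4 and not the list as a whole. At least 10 UMIs of a single tissue list were found in 54, 107, 69 and 85 members, which had a median of 719 to 1421.5 genes. How far free RNA or a second cell in the droplet gave these UMIs was not tested.

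**Figure D2:**
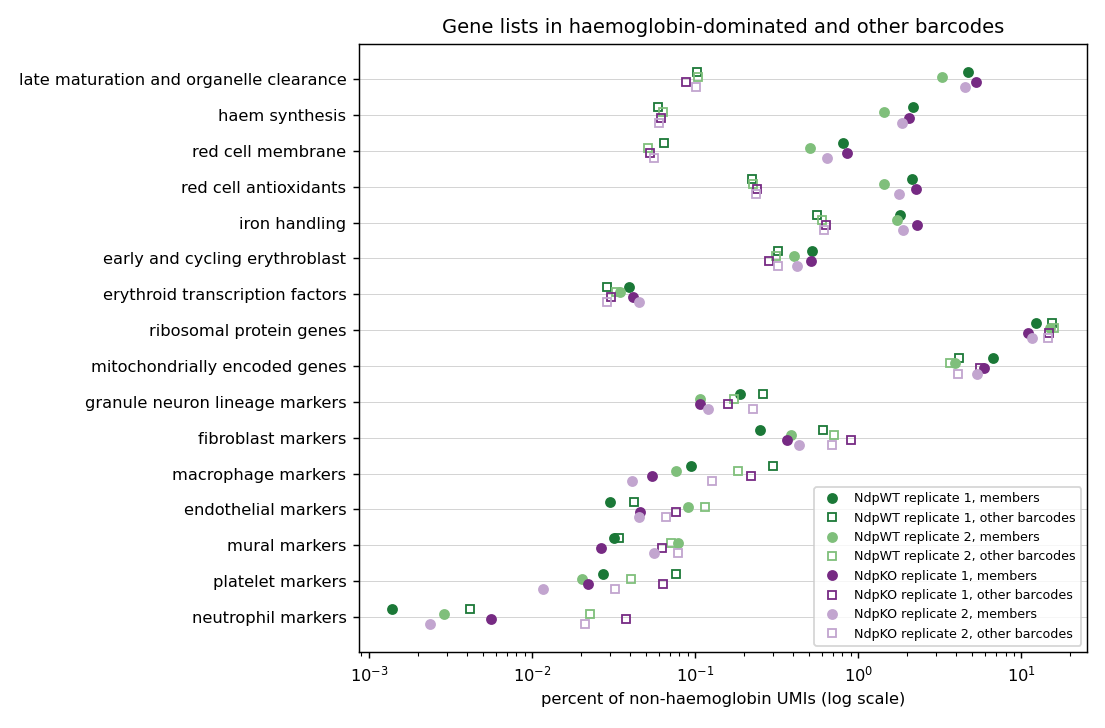
Share of non-haemoglobin UMIs (percent, log axis) taken by each gene list, with 1 filled circle per library for haemoglobin-dominated barcodes and 1 open square for all other barcodes of that library. Late maturation, haem synthesis, membrane and antioxidant lists lie to the right of the squares, and fibroblast, macrophage, platelet and neutrophil lists to the left.

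Members differed widely among themselves in Hbb-bt. Over a whole library it held 11.4%, 12.8%, 13.1% and 12.3% of adult beta UMIs, but from barcode to barcode the 10th percentile was 1.26%, 2.06%, 1.95% and 1.55% and the 90th 15.4%, 18.5%, 17.5% and 17.6%. The SD between barcodes was 5.43, 6.12, 5.62 and 5.93 percentage points, against 0.896, 0.855, 0.648 and 0.851 from binomial counting alone. The Hba-a2 share of alpha UMIs varied less, with an SD of 2.76 to 2.88 against 0.925 to 1.62 from counting, and the alpha share by an SD of 5.30 to 7.60 against 0.619 to 0.970. Hbb-bt share was higher in deeper barcodes: Spearman's rho with UMIs was 0.816, 0.711, 0.796 and 0.788 over the 1385, 3404, 1320 and 2057 members, which within a library share a pool and a run.

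**Figure D3:**
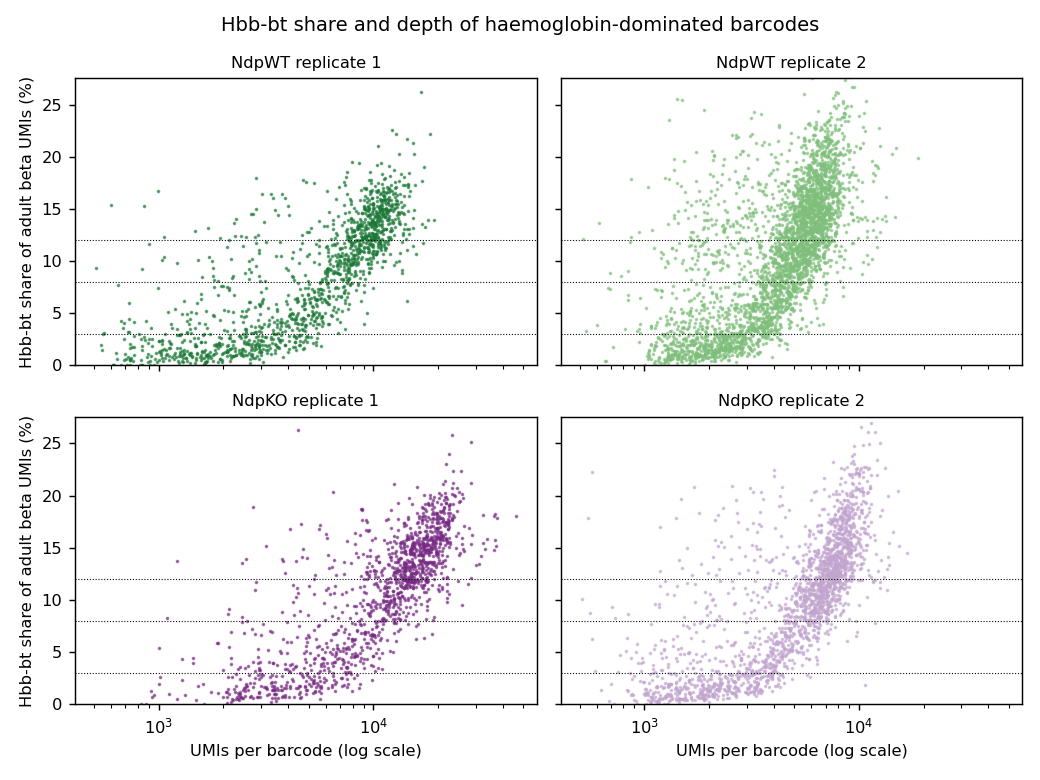
Hbb-bt share of adult beta UMIs (percent) against UMIs per barcode (log axis), with 1 point per haemoglobin-dominated barcode and dotted lines at 3%, 8% and 12%. In each library a tail of low-share barcodes at low depth runs into a cloud above 12% at high depth.

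Bands of Hbb-bt share, set after seeing this spread, describe what goes with it. They are given with no test, since cells of a library are not replicates. Under 3% lay 333, 515, 190 and 397 members, and at 12% and over 463, 1516, 634 and 794. Median depth was 1914, 2056, 3489 and 1978 UMIs in the low band and 10147, 6125, 16945.5 and 8024 in the high band. Over 5100 genes, 7.53% were higher in the high band in all 4 libraries and 32.2% lower, and the median fold was 0.793.

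Gpx1 separated the bands furthest. It stood at 160, 244, 165 and 213 CPM in the low band and 24035, 13982, 20373 and 20045 in the high band, 100-fold apart as a geometric mean and not overlapping. Per barcode this was 0.0661, 0.159, 0.0895 and 0.118 UMIs against 26.0, 14.3, 27.2 and 19.0.

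Membrane genes followed the same order. Slc4a1 had 1, 2, 1 and 0 UMIs in the low band and 507, 1172, 1090 and 657 in the high band. Epb41, in contrast, was present in both, at 1734, 883, 1832 and 1185 against 3891, 2534, 3797 and 3196 CPM. Of 12 membrane genes compared, 11 were higher in the high band in all 4 libraries.

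Late maturation genes were higher in the high band for 17 of 18 members, with a median fold of 6.59. Bpgm was 24.5-fold higher, Mkrn1 16.2-fold and Bnip3l 6.37-fold. Alas2 moved less, 2.87-fold, from 5414, 3507, 4662 and 4164 CPM to 14735, 10016, 12415 and 13613. The same held for the iron importer Slc25a37 at 3.35-fold and Fech at 3.58-fold, while Glrx5, of iron-sulphur cluster assembly, was 16.9-fold higher. Haem synthesis genes were higher in 8 of 10 cases and lower in 1. Among antioxidants, Blvrb was 14.5-fold, Cat (catalase) 9.69-fold and Prdx2 7.06-fold higher, and Sod1 was 0.787-fold. Ubb was 3.69-fold higher.

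Other transcripts were mixed. Car2 was 84.0-fold higher in the high band, in the early and cycling list. Of 14 genes of that list, 2 were higher in all 4 libraries and 3 lower. Fth1 went from 2098, 3310, 4061 and 3119 to 6764, 6988, 8742 and 7545 CPM. Of 8 iron genes, 2 were higher in all 4 libraries and 3 lower. Malat1 was 1.03-fold and Ftl1 1.25-fold. Gm42418 was 0.625-fold, from 113837, 108767, 191079 and 120297 to 50113, 88240, 106342 and 92237 CPM. Of 81 ribosomal protein genes, 68 were lower in the high band in all 4 libraries, with a median of 0.786-fold, close to the 0.793 of all genes. Fibroblast markers were lower for 9 of 11, and the tissue marker lists together took 0.664%, 0.897%, 0.758% and 0.870% of non-haemoglobin UMIs in the low band and 0.549%, 0.661%, 0.534% and 0.627% in the high band. The part of free RNA and of depth in these differences was not tested as a whole. Within members of 2000 to 6000 UMIs, Gpx1 was 44.96-fold, 41.6-fold, 56.5-fold and 43.6-fold higher in the high band, Bpgm 13.4-fold, 18.6-fold, 5.89-fold and 11.5-fold, and Alas2 1.85-fold, 2.40-fold, 2.23-fold and 2.22-fold. That window held 155, 267, 148 and 191 low and 31, 643, 17 and 103 high barcodes and was chosen after seeing the data. It narrowed the gap in depth but did not close it: the median was 2924, 2506, 3451.5 and 2768 UMIs in the low band and 3422, 5174, 4362 and 4399 in the high band.

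**Figure D4:**
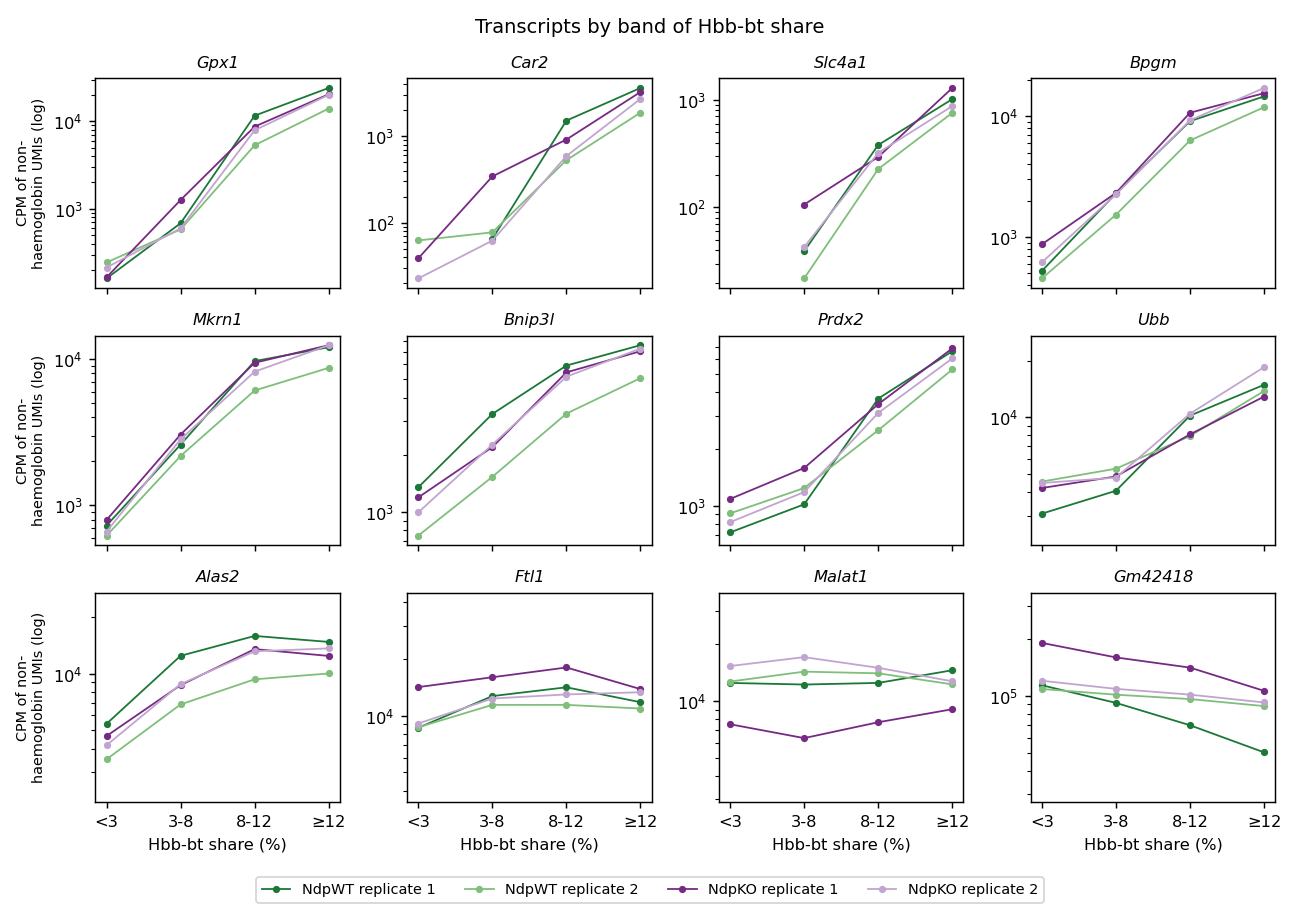
CPM of non-haemoglobin UMIs (log axes, scale differing between panels) of 12 genes in bands of Hbb-bt share, with 1 line per library and points under 3 UMIs left out. In all 4 libraries Gpx1, Car2 and Slc4a1 are higher at 12% and over than at 3% to 8%, Alas2 differs little between the upper bands, and Gm42418 is lower in the high band than in the low band.

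Genotype was compared over the 4 libraries, 2 per genotype. By the protocol each wild-type run was paired with a knockout run from the same litters, but whether equal replicate numbers stand for such a pair is not stated. Ndp itself had 2, 5, 1 and 1 UMIs in members and 217, 153, 41 and 54 in the other barcodes, so members give no check of the labels. An exact 2-sided permutation test of 2 against 2 cannot go below p = 0.3333. Members were 13.7% ± 5.77 (SD, n = 2) of NdpWT and 11.3% ± 1.58 of NdpKO barcodes (exact permutation p = 1). The groups overlapped, and without NdpWT replicate 2 the difference of -2.36 percentage points became 1.72. Median UMIs per member were 5462 ± 978 in NdpWT and 9311 ± 4799 in NdpKO (exact permutation p = 0.667), the latter spread by NdpKO replicate 1. Median non-haemoglobin UMIs were 627 ± 165 and 682 ± 27.2 (exact permutation p = 1). Alpha genes held 36.9% ± 1.41 of globin UMIs in NdpWT and 38.6% ± 2.56 in NdpKO, Hbb-bt 12.1% ± 0.983 and 12.7% ± 0.567 of beta UMIs, and Hba-a2 41.8% ± 0.598 and 42.4% ± 1.08 of alpha UMIs (each exact permutation p = 0.667). For these 6 measures the genotypes overlapped.

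Without a term for the replicate number, no gene passed edgeR's quasi-likelihood test at an adjusted p of 0.05 on UMIs summed per library over members. Of 10522 genes tested, 0 rose and 0 fell in NdpKO (0% called in each direction), with 432 at an unadjusted p under 0.05, and DESeq2 called 0 with 134. With the replicate number as a block, 34 were called, 26 higher (0.247%) and 8 lower (0.076%) in NdpKO. Of the erythroid lists this called 1 gene, Hemgn, the erythroid nuclear protein hemogen (log2 change 1.32 ± 0.27, adjusted p = 0.0407 by edgeR with the block), a gene named here after its value was seen. Hemgn had 29, 55, 113 and 52 UMIs in members, or 28.8, 18.4, 84.6 and 32.3 CPM. NdpKO replicate 1 thus stood apart, and NdpKO replicate 2 was close to NdpWT replicate 1. Outside these lists, the calls included Rec114, 376-fold higher in members than in other barcodes (log2 change 0.89 ± 0.18, adjusted p = 0.0284 by edgeR with the block). They also held 1 fibroblast, 1 macrophage and 1 endothelial marker, so the 34 calls are not red cell genes as a set. Without NdpWT replicate 1, 110 genes were called, 91 higher and 19 lower. Without the block, the erythroid lists had 0 members called, with lowest adjusted p of 0.979 by edgeR. Their median log2 changes (NdpKO over NdpWT) were 0.58 for 20 membrane genes, 0.38 for 20 late maturation genes and 0.30 for 16 haem synthesis genes, against 0.0014 for all genes. The 4 adult globins ran from 0.64 to 0.81, with a median of 0.77. These genes chose the members, so their change is a description and not a result. Both NdpKO libraries lay above both NdpWT libraries for 0 of the 4. Scaling by total UMIs instead of TMM (edgeR's trimmed-mean scaling) moved the median of all genes to -0.60. Relative to all genes, the medians of the 3 lists were then 0.50, 0.40 and 0.29, close to their values with TMM. Both NdpKO libraries lay above both NdpWT libraries for 8 of 20 membrane, 3 of 20 late maturation and 3 of 16 haem synthesis genes. The share over all genes tested was 17.2%. Summed, the membrane list took 0.807%, 0.510%, 0.859% and 0.642% of the members' non-haemoglobin UMIs. The haem synthesis list took 2.18%, 1.44%, 2.05% and 1.85%. In these sums and that of late maturation, given above, NdpWT replicate 1 exceeded NdpKO replicate 2, so the genotypes overlapped for all 3 lists. By edgeR, Alas2 had a log2 change of 0.21 ± 0.34 (SE) and Bpgm 0.54 ± 0.32, each with an adjusted p of 0.979. TMM factors ran from 0.576 in NdpKO replicate 1 to 1.61 in NdpWT replicate 2.

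Among the 5 genes of lowest p, none passed, and the 4 described here are not in the erythroid lists. Agt, angiotensinogen, stood at 5.95, 3.35, 22.5 and 22.4 CPM in members and 10.1, 4.85, 25.1 and 12.6 in other barcodes (edgeR log2 change 2.57 ± 0.42, adjusted p = 0.586). The sodium-coupled transporter gene Slc13a4 stood at 15.9, 25.1, 51.7 and 73.4, beside 38.8, 45.5, 107 and 92.9 elsewhere. Slco1c1, a thyroid hormone transporter of brain vessels, stood at 15.9, 43.2, 1.498 and 3.73, beside 21.2, 40.8, 8.74 and 7.21. Retnla, a secreted protein of alternatively activated macrophages, had 9, 31, 0 and 0 UMIs in members, at least 4.695-fold lower in NdpKO against a floor of 3 UMIs per library, and 1935, 2442, 119 and 1572 in other barcodes. These 4 genes were chosen for their low p, so that their groups do not overlap in members is no result. With the replicate block their adjusted p by edgeR was 0.00642 for Agt, 0.00233 for Slc13a4, 0.00171 for Slco1c1 and 0.00969 for Retnla. The part of free RNA in these differences was not tested. Macrophage markers were lower in NdpKO for 11 of 12 genes, 0 of them called without the block and 1, Lyve1, with it by edgeR (adjusted p = 0.0284), with a median log2 change of -0.72, beside 49.8% of all genes tested that were lower. Both NdpKO libraries lay below both NdpWT libraries for 7 of the 12, beside 16.8% of all genes. Summed, the macrophage list took 0.0950%, 0.0759%, 0.0544% and 0.0409% of non-haemoglobin UMIs in members. In other barcodes it took 0.301%, 0.184%, 0.221% and 0.127%. Lyve1 stood at 74.4, 52.6, 27.7 and 19.3 CPM in members and 310, 151, 165 and 76.2 in other barcodes. The part of free RNA in the macrophage markers was not tested either.

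**Figure D5:**
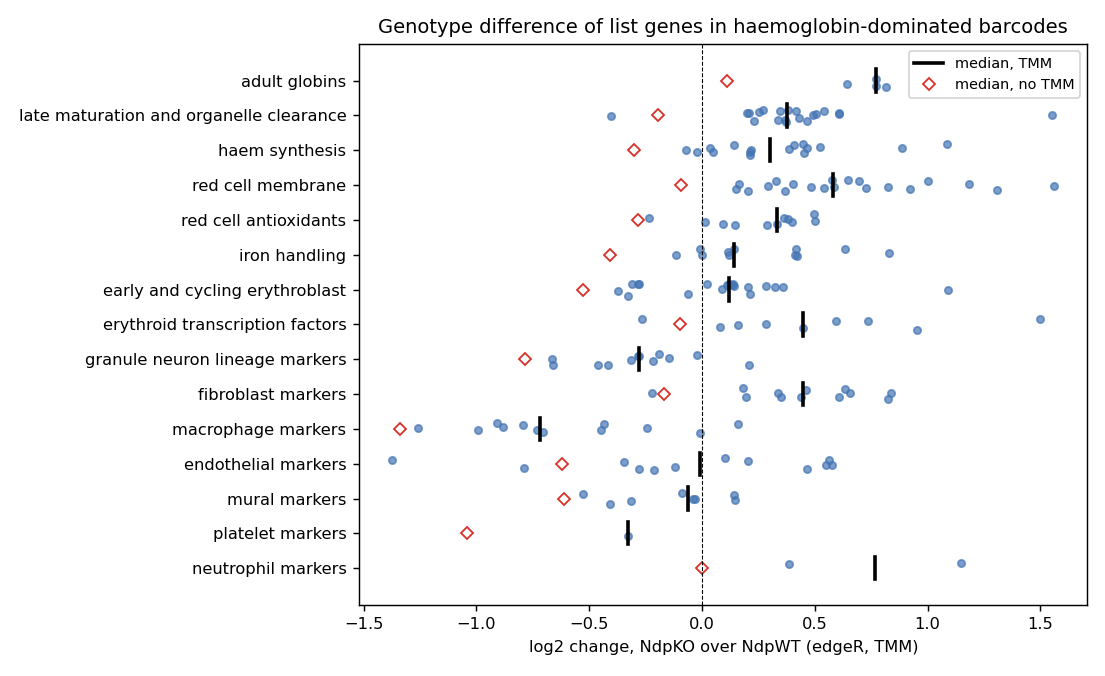
Log2 change (NdpKO over NdpWT, edgeR with TMM) of each tested gene of the lists, with 1 blue point per gene, a black bar at the list's median and a red diamond at the median without TMM. Without TMM the median of all genes is -0.60, so the diamonds are read from there and the bars from near 0. By both, the medians of the erythroid lists lie above that of all genes. The adult globins chose the members, so their row is a description and not a result.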

How the data were processed

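The authors deposited raw UMI counts for each barcode, 1 sparse matrix a library. Cell Ranger 6.1.2 and the build mm10 are named in the submitters' processing notes. The labels do not state a removal of doublets or free RNA, and neither was removed for these results. The 4 libraries held 114363848 to 125981161 UMIs, at least 500 per barcode. Members were summed per library and tested by edgeR 4.0.16 (quasi-likelihood, robust, TMM, filterByExpr minimum count 10) in R 4.3.3, with Benjamini-Hochberg adjustment over all genes. DESeq2 1.42.0 was an alternative. In simulated counts for this comparison over 10276 genes, edgeR called 13% of 100 genes changed 2-fold, 79% of 100 changed 4-fold and 1 unchanged gene. The simulation gave all genes 1 dispersion (0.0379) and, apart from the changed genes, all libraries the same composition. The real libraries differed in composition, with TMM factors from 0.576 to 1.61, so fewer changes may be called in them. P-values measure the spread between 2 pooled libraries per genotype. Exact permutation tests (scipy 1.17.1) were 2-sided over libraries. Replicates of a genotype differed by more than sampling noise, with a chi-square over its degrees of freedom of 26.4 and 28.9.

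Members, bands and lists were chosen with earlier results of these data known. Named genes are all Hba- and Hbb- genes with UMIs, the markers, the 4 most abundant and any called of each list, the 10 most abundant, the 10 of highest ratio to other barcodes, and the 5 of lowest p; values of some of these are not reported here. Mki67, Top2a, Tfrc, Gata1, Klf1, Ndp, Hemgn, Lyve1 and the genes named only for the Hbb-bt bands (Glrx5, Cat and Sod1) were chosen after their values were seen. Alternatives were other haemoglobin thresholds, filters on barcodes, scaling, a replicate block and leaving out libraries.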

Additional observations from a re-analysis of the deposited data

How the results depend on the processing

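The count of genes called between genotypes was 0 at haemoglobin thresholds of 25%, 75% and 90%, under the filters on barcodes and with DESeq2. It was 2 without TMM, 25 with no filter on low counts and 34 (26 higher, 8 lower in NdpKO) with a replicate block, which changed no other measure since those come from no model. The labels match runs by litter without tying the match to the replicate number; differences between replicates 1 and 2 correlated at 0.178 between genotypes across genes. The block called 7 of 82 named genes. Leaving out 1 library gave 0 to 110 calls (110 without NdpWT replicate 1, 4 without NdpWT replicate 2, 1 without NdpKO replicate 1), the lone library being assumed to vary like the others. The share of members (NdpKO minus NdpWT) turned to 2.92 percentage points at a threshold of 90%, where NdpWT replicate 2 had 54 barcodes, and ran from -6.44 to 1.72 over left-out libraries. Likewise the log2 difference of median non-haemoglobin UMIs ran from -0.126 to 0.419 and that of median UMIs from 0.127 to 1.23. Differences in percentage points ran from -0.0789 to 3.55 for the alpha share, -0.0565 to 1.33 for the Hbb-bt share and -0.176 to 1.35 for the Hba-a2 share. The cause of these turns was not tested. With 2 libraries per genotype, most 2-fold changes would not be called.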
